A study of Homo sapiens with 24 samples.

Results

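The 37 genes described here serve protein folding in the endoplasmic reticulum (ER) and the unfolded protein response. They were taken as a fixed list of gene symbols, which was chosen with earlier results of these data known. Each symbol matched 1 Ensembl gene ID, so the list makes up 37 of the 58735 genes in the count tables. They comprise 9 chaperones with their helpers, 8 lectins and oxidoreductases, 10 genes of ER-associated degradation, 3 genes of translocation, ER exit and ion balance, and 7 stress sensors and factors. RNA was sequenced from HT-144, an established human melanoma line grown from a metastasis, after 3 days of transfection with reagents against SREBF1, the gene of the lipid-synthesis transcription factor SREBP-1. The siSREBF1 group received a pool of small interfering RNAs (siRNAs) at 50 nM. The ASO-SREBF1-S1 and ASO-SREBF1-S4 groups each received a different antisense oligonucleotide (ASO) at 5 nM. Their references were a negative-control siRNA at 50 nM (siNegative), a negative-control ASO at 5 nM (ASO-Neg) and mock transfection with no oligonucleotide. All 6 groups shared the cell line, the transfection lipid Lipofectamine RNAiMAX and the insulin-transferrin-selenium medium. Each group was 1 library run over 4 lanes, and the lanes were summed, so no group has a replicate of its own. The 3 targeting libraries together against the 3 control libraries gave the main test, and its spread is that between different reagents.

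The ER folds secreted and membrane proteins with chaperones of the heat-shock families, with lectins that read the sugar trees of glycoproteins and with enzymes that form disulfide bonds, and it sends failed proteins out to the proteasome. When unfolded proteins build up, BiP leaves the sensors PERK, IRE1 and ATF6. PERK then slows translation and favours ATF4 and CHOP, IRE1 splices the XBP1 message into that of an active factor, and ATF6 travels to the Golgi, where the site-1 and site-2 proteases cut it free. The same proteases release the SREBPs, and signs of an active unfolded protein response are often found in melanoma.

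The libraries held between 12916478 and 47900277 counts in genes, with ASO-SREBF1-S1 the deepest. SREBF1 stood at 55.0, 77.1 and 70.4 CPM, the count scaled to a common library total, in siSREBF1, ASO-SREBF1-S1 and ASO-SREBF1-S4, against 249.7, 217 and 232 CPM in siNegative, ASO-Neg and mock. It fell by 1.78 on the log2 scale (standard error (SE) 0.12, edgeR quasi-likelihood adjusted p = 0.00164, lower in 3 of 3 targeting libraries), which fits the labels. All 8 melanoma and melanocyte markers were detected, and summed to 4203, 5596 and 4131 CPM in the targeting libraries and to 4802, 5055 and 6291 CPM in siNegative, ASO-Neg and mock, and each of the 8 had a log2 ratio of targeting over control below 0 that did not pass the test, though over ASO-Neg 7 of 8 were above 0 in ASO-SREBF1-S1 and 7 of 8 below 0 in ASO-SREBF1-S4. Among markers of other cell types, the 3 keratinocyte genes summed to at most 1.18 CPM in any library, with KRT1 at 0 throughout, the 3 immune genes to at most 1.35 CPM and the 3 endothelial genes to at most 3.14 CPM. The 4 fibroblast genes summed to between 62.7 and 77.0 CPM in targeting and between 85.4 and 94.4 CPM in control libraries, most of it LUM. The part of these marker levels in the results below was not tested.

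Of the 37 members, 36 passed the filter on low counts. The exception was DERL3, a derlin of the degradation channel known mainly from secretory cells, with 2, 9 and 4 reads in siSREBF1, ASO-SREBF1-S1 and ASO-SREBF1-S4 and 4, 3 and 0 reads in siNegative, ASO-Neg and mock. These counts lie near the 3 reads that a count of 0 allows, so no ratio is given for it. Levels of different genes were compared as CPM per kilobase of the canonical transcript, by the median over the 6 libraries. HSP90B1, the ER form of HSP90 known as GRP94, led at 889 CPM per kilobase, followed by the lectin chaperone CALR (731) and the disulfide isomerases P4HB (473) and PDIA6 (445). BiP, coded by HSPA5, stood at 340.5 CPM per kilobase. The sensors lay at the low end of this scale, with ATF6 at 12.4, EIF2AK3 (PERK) at 5.85 and ERN1 (IRE1) at 1.46 CPM per kilobase. The order did not follow role throughout, since WFS1 (4.59), the chaperone helper DNAJB9 (6.25), DERL2 (6.28) and the oxidase ERO1B (8.98) also lay below ATF6. Neighbours such as PDIA4 and PDIA3, at 243 and 220.5 CPM per kilobase, overlapped between libraries.

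**Figure D1:**
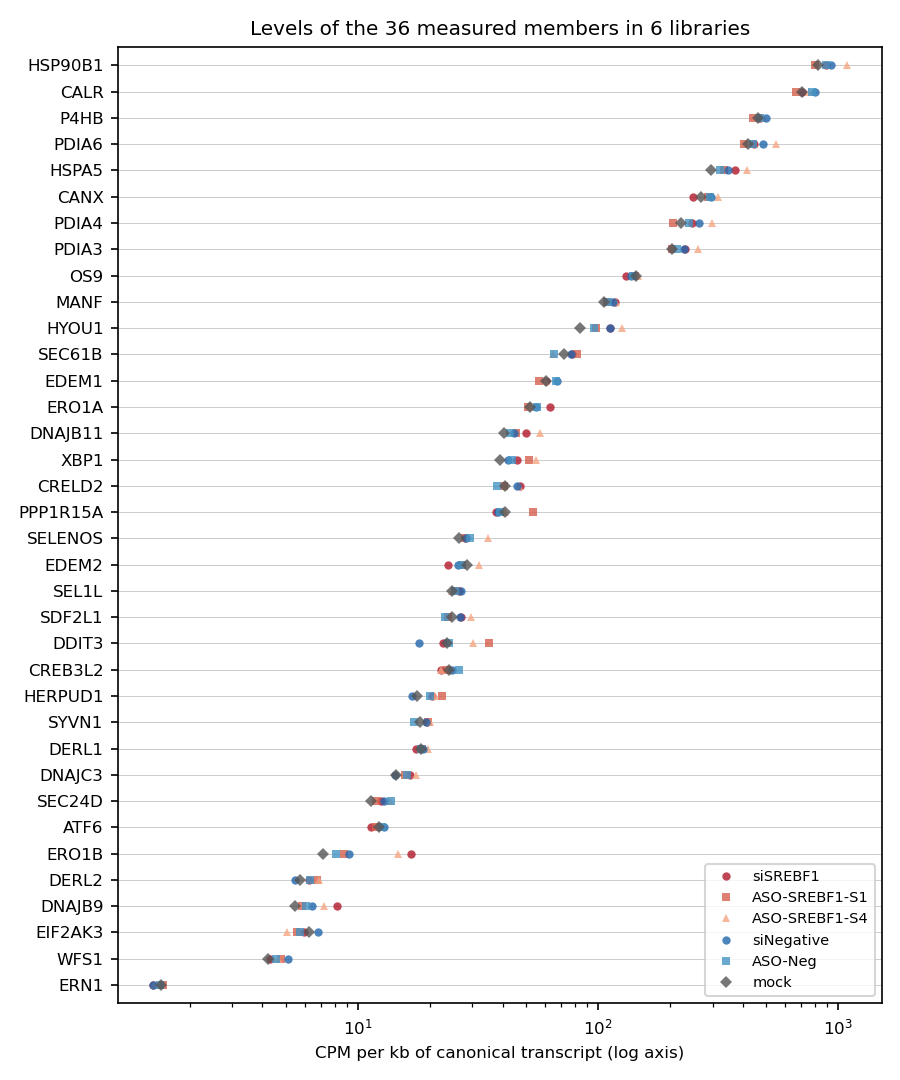
Level of each of the 36 measured members in each of the 6 libraries, as CPM per kilobase of canonical transcript on a log axis, sorted by the median over libraries. The members run from ERN1, at a median of 1.46, to HSP90B1, at 889, and the 6 points of most members lie close together.

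Set against that wide range of levels, the libraries differed little. The ratio of the highest to the lowest library had a median of 1.26 over the 36 members, and 32 of them (88.9%) stayed within 1.5-fold. Over the 9659 genes with a median of at least 10 CPM the same median was 1.24, and 87.8% stayed within 1.5-fold.

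The comparison of targeting with control libraries asks what lowering SREBF1 does to these genes. No member passed the edgeR quasi-likelihood test at an adjusted p of 0.05, in a comparison where 9 of 15123 genes did (0.0595%), and the smallest adjusted p of a member was 0.295, for XBP1. At an unadjusted p under 0.05 there were 5 members, ERO1B, XBP1, HERPUD1, DNAJB11 and DDIT3, all with the targeting mean above the control mean, against 4.93% of all genes in that direction and 5.3% in the other (10.2% in both). DESeq2 called 1 member, ERO1B, and 170 of 14536 genes (1.17%), and limma-voom called 0 members and 5 genes (0.0331%). Each had 6 members at an unadjusted p under 0.05, beside 1199 genes with DESeq2 and 1558 with limma-voom. With chemistry (siRNA, ASO or mock) as a term, which sets each reagent against its own control, 2 members, ERO1B and DDIT3, and 812 of 15123 genes remained under an unadjusted p of 0.05, while XBP1, HERPUD1 and DNAJB11 did not. The 3 targeting libraries lay above the 3 control libraries with no overlap for DNAJB11, HERPUD1, SYVN1 and XBP1 and below them for CREB3L2, which is 4 and 1 of 36 members against 8.87% and 8.52% of all genes (17.4% in both). The log2 ratio was above 0 for 25 members and below 0 for 11, with a median of 0.06, beside 51.5% of all genes above 0 and a median of 0.01. These are bulk libraries of a cell line, in which fewer cells of a kind and less RNA per cell cannot be told apart.

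**Figure D2:**
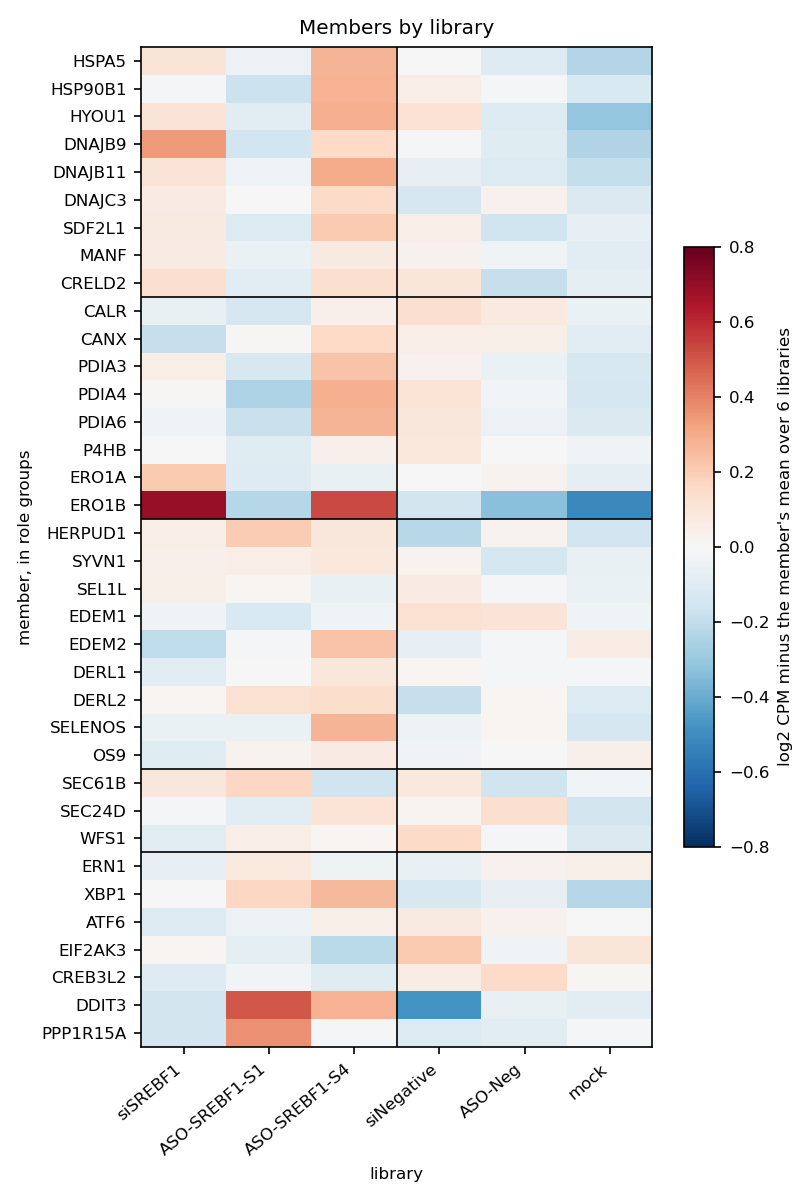
Log2 CPM of each measured member in each library, minus the mean of that member over the 6 libraries, with members in their role groups and the 3 targeting libraries left of the 3 control libraries. ASO-SREBF1-S4 held the highest value of 18 of the 36 members, beside 21.3% of all genes, and mock the lowest value of 11, beside 15.9%.

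The chaperones ranged widely in level, and none passed the test. All 9 had a log2 ratio above 0, with a median of 0.14, beside 51.5% of all genes above 0. With ASO-SREBF1-S4 left out, the log2 ratio was -0.07 for HSP90B1. In that setting it was 0.14 for HSPA5, 0.10 for HYOU1, 0.20 for DNAJB9 and 0.15 for DNAJB11. HSPA5 codes BiP, the HSP70 of the ER that holds unfolded chains and keeps the sensors silent. It measured 1457, 1312 and 1635 CPM in siSREBF1, ASO-SREBF1-S1 and ASO-SREBF1-S4, against 1358, 1262 and 1153 CPM in siNegative, ASO-Neg and mock. ASO-SREBF1-S4 was the highest and mock the lowest, and ASO-SREBF1-S1 lay inside the range of the controls. The log2 ratio was 0.22 (SE 0.10, edgeR adjusted p = 0.498). DNAJB11, a J-domain cochaperone of BiP, had 81.9, 74.5 and 93.8 CPM in the same targeting libraries and 72.9, 70.8 and 66.7 CPM in the controls. Its sides did not overlap, and the difference of 0.25 on the log2 scale (SE 0.09) did not pass (edgeR adjusted p = 0.401). HYOU1, a large HSP70-like protein that exchanges the nucleotide of BiP, stood at 514, 449.9 and 581 CPM in targeting and 518, 442 and 386 CPM in control libraries, with ASO-SREBF1-S4 the highest, mock the lowest and the others overlapping. HSP90B1 showed 2472, 2219.5 and 3034 CPM in targeting and 2602, 2473 and 2296 CPM in control libraries, with ASO-SREBF1-S1 the lowest of the 6 and ASO-SREBF1-S4 the highest. DNAJB9, a J-domain partner of BiP that represses IRE1, was low, between 14.1 and 19.8 CPM in targeting and between 13.2 and 15.5 CPM in control libraries. The remaining 4 genes of the group had log2 ratios between 0.06 and 0.14, namely DNAJC3, a BiP cochaperone that also inhibits PERK, SDF2L1, a partner of DNAJB11, MANF, a secreted protein that binds BiP, and CRELD2, which acts on disulfide bonds.

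Promoters of these genes are where the ER stress response element (ERSE) was defined in this field, as CCAAT and CCACG with 9 bases between them, which ATF6 binds together with NF-Y. The 250 bases before each RefSeq start (GRCh38.p14) were read for it on both strands, for the 33 members with an entry in the RefSeq table. PDIA3, DERL1, DERL3 and SEC24D had no entry. The element was present in 8 of the 33 members, against 25 of 27305 genes (0.0916%), or in 9 of 41 member windows against 26 of 35116 windows (0.0740%). Its exact letters are shown to let the members be compared, with the 2 conserved parts in capitals and the 9 spacer bases in lower case, each 5' to 3' along the strand that carries it. HSP90B1 had 2 exact copies, and near matches were not counted in any member.
HSPA5, chr9:125241391-125241409, minus strand: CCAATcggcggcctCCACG
HSP90B1, chr12:103930216-103930234, plus strand: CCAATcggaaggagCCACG
HSP90B1, chr12:103930321-103930339, minus strand: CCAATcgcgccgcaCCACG
CRELD2, chr22:49918554-49918572, minus strand: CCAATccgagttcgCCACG
CALR, chr19:12938384-12938402, minus strand: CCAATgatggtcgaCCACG
CANX, chr5:179698778-179698796, plus strand: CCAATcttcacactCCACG
PDIA6, chr2:10812853-10812871, minus strand: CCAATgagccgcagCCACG
ERO1B, chr1:236282183-236282201, plus strand: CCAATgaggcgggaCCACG
XBP1, chr22:28800603-28800621, minus strand: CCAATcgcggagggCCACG

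The related element ERSE-II, ATTGG and CCACG with 1 base between them, was present in 3 of the 33 members, HYOU1, SDF2L1 and HERPUD1, against 18 of 27305 genes (0.0659%). HYOU1 had 2 copies, and 1 of them overlaps TGACGTGG, the unfolded protein response element that XBP1 binds, which 0.612% of all windows held. The letters of ERSE-II are given with the conserved parts in capitals.
HYOU1, chr11:119057380-119057390, plus strand: ATTGGaCCACG
HYOU1, chr11:119057274-119057284, plus strand: ATTGGaCCACG
SDF2L1, chr22:21642114-21642124, minus strand: ATTGGtCCACG
HERPUD1, chr16:56932025-56932035, plus strand: ATTGGgCCACG

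A match describes these letters only and is not evidence of binding. The promoter stretches of HSPA5 (chr9:125241383-125241593, minus strand), XBP1 (chr22:28800598-28800819, minus strand), ERO1B (chr1:236282020-236282208, minus strand) and HERPUD1 (chr16:56931892-56932141, plus strand) put the elements in their setting, because these genes carry the values given most fully here. Each ends at the base before the annotated gene and reads 5' to 3' along the strand of its gene, with matched elements in capitals, so that the element of ERO1B, on the opposite strand, appears as its reverse complement. The capitals TTGCATCA in HERPUD1 are the composite C/EBP and ATF element that ATF4 binds, which 271 of all windows (0.772%) held and no other member window did.
HSPA5 promoter: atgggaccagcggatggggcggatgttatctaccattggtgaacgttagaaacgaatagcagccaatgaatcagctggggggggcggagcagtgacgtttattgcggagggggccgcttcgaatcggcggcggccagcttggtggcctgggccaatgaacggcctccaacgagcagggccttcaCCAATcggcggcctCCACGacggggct
XBP1 promoter: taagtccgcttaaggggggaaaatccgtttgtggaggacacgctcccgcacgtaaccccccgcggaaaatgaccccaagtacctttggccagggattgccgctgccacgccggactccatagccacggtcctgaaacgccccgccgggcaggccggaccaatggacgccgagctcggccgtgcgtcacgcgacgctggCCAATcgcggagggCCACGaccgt
ERO1B promoter: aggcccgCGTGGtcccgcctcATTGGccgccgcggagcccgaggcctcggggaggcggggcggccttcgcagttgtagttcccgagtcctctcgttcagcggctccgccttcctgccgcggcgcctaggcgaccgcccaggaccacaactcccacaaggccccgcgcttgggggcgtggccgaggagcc
HERPUD1 promoter: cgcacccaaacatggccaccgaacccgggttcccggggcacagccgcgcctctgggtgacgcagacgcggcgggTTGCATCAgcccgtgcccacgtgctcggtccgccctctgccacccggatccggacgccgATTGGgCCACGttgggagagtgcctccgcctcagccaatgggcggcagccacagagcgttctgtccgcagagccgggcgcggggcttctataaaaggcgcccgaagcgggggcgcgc

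Among the lectins and oxidoreductases, ERO1B was the member with the widest spread between libraries. ERO1B (chromosome 1, 236214681 to 236282019, minus strand, protein-coding) codes an oxidase that passes oxidising power to the disulfide isomerases and is known from mouse beta cells for its part in insulin folding. It measured 82.9, 43.6 and 73.5 CPM in siSREBF1, ASO-SREBF1-S1 and ASO-SREBF1-S4, against 46.0, 40.5 and 35.7 CPM in siNegative, ASO-Neg and mock. siSREBF1 and ASO-SREBF1-S4 stood well above every control, while ASO-SREBF1-S1 lay below siNegative. The means were 66.7 ± 20.5 CPM in targeting and 40.7 ± 5.17 CPM in control libraries (SD, n = 3 each), a log2 ratio of 0.69 (SE 0.21) that edgeR did not call (adjusted p = 0.313) and DESeq2 did (adjusted p = 0.0296). Leaving out ASO-SREBF1-S1, the lowest targeting library for ERO1B, was bound to raise the ratio, so the result adds no support. In that setting the log2 ratio was 0.93 (edgeR adjusted p = 0.00982), among 103 genes called in place of 9. Leaving out any other single library gave 0 members called.

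ERO1A, the more widely expressed oxidase of the same family, did not share that pattern of libraries. It had 326, 262 and 269.95 CPM in siSREBF1, ASO-SREBF1-S1 and ASO-SREBF1-S4 and 283, 287 and 268 CPM in siNegative, ASO-Neg and mock, with only siSREBF1 above the controls. PDIA4, an isomerase of the thioredoxin family, stood at 679, 569 and 822 CPM in targeting and 728, 665 and 616 CPM in control libraries, so both the lowest and the highest value came from SREBF1 ASOs. PDIA6, which also acts on IRE1 and PERK, showed the same order of libraries at its ends, with 919 CPM in ASO-SREBF1-S1 and 1257 CPM in ASO-SREBF1-S4 around the controls at 961 to 1106 CPM. PDIA3, the isomerase that works with the lectins, ranged from 748 to 958 CPM in targeting and from 746 to 836 CPM in control libraries. The lectins CALR and CANX, which hold glycoproteins until they fold, and P4HB, the archetypal isomerase and a subunit of prolyl hydroxylase, had log2 ratios of -0.11, -0.01 and -0.04. In all, 5 of these 8 genes had a ratio above 0, with a median of 0.04.

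**Figure D3:**
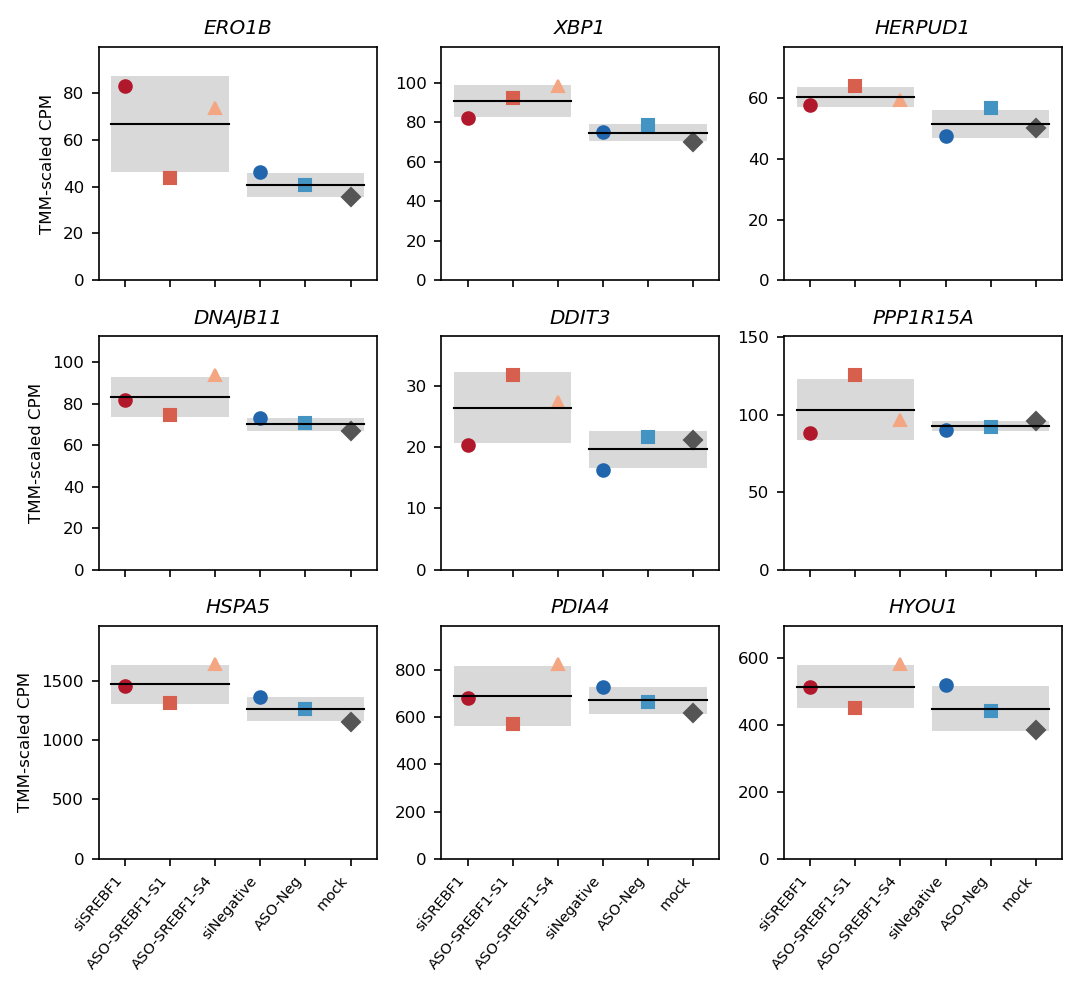
Scaled CPM of 9 members in each library, with linear axes from 0, the mean of each side as a line and 1 SD either way as a band (n = 3 libraries a side). ERO1B is split within the targeting side, with ASO-SREBF1-S1 near the controls, and DDIT3 and PPP1R15A are highest in ASO-SREBF1-S1.

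Genes of ER-associated degradation had small log2 ratios, and none passed the test. HERPUD1 (chromosome 16, 56932142 to 56944864, plus strand, protein-coding), a membrane protein that gathers the ubiquitin ligase complex, had 57.8, 64.2 and 59.5 CPM in siSREBF1, ASO-SREBF1-S1 and ASO-SREBF1-S4, against 47.8, 56.8 and 50.2 CPM in siNegative, ASO-Neg and mock. Every targeting library was above every control, narrowly for siSREBF1 over ASO-Neg, and the log2 ratio of 0.23 (SE 0.08) did not pass (edgeR adjusted p = 0.378). SYVN1, the HRD1 ligase itself, was between 58.8 and 60.6 CPM in targeting and between 51.9 and 58.2 CPM in control libraries, without overlap, but its annotated span overlaps FAU on the same strand, so its reads are uncertain. SEL1L, the adaptor that stabilises HRD1, differed by a log2 ratio of 0.00 between the sides and stayed between 194 and 212 CPM in all 6 libraries. The mannose-trimming proteins EDEM1 and EDEM2, which mark glycoproteins for disposal, had log2 ratios of -0.13 and 0.02. The channel proteins DERL1 and DERL2 had log2 ratios of 0.00 and 0.19, SELENOS, a selenoprotein that recruits the p97 ATPase, 0.11, and OS9, a lectin that hands glycoproteins to SEL1L, -0.00. Of the 9 tested, 7 had a ratio above 0, with a median of 0.02.

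None of the 3 genes of translocation, exit and ion balance passed the test. SEC61B, a subunit of the channel through which chains enter the ER, lay between 36.7 and 46.1 CPM in targeting and between 36.9 and 43.5 CPM in control libraries. Its log2 ratio was 0.32 (0.20 to 0.45, 95% counting interval) for ASO-SREBF1-S1 over ASO-Neg, at 46.1 and 36.9 CPM, and -0.00 for ASO-SREBF1-S4 over ASO-Neg. SEC24D, a cargo adaptor of the COPII coat, had a log2 ratio of -0.00 between the sides and of -0.22 (-0.33 to -0.10) for ASO-SREBF1-S1 over ASO-Neg. WFS1, an ER membrane protein tied to calcium and to ATF6 turnover, had one of -0.02 between the sides. The WFS1 window was the only member window with the sterol element TCACNCCAC, which 310 of all windows (0.883%) held. Its level was 15.7, 17.3 and 16.9 CPM in siSREBF1, ASO-SREBF1-S1 and ASO-SREBF1-S4 and 18.5, 16.5 and 15.4 CPM in siNegative, ASO-Neg and mock, with the sides overlapping.

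The sensors gave no member past the test in either direction. EIF2AK3 measured 26.9, 25.2 and 23.0 CPM in siSREBF1, ASO-SREBF1-S1 and ASO-SREBF1-S4 and 30.8, 26.1 and 28.5 CPM in siNegative, ASO-Neg and mock, overlapping only through siSREBF1 and ASO-Neg (log2 ratio -0.19, SE 0.10, edgeR adjusted p = 0.557). ERN1, between 11.0 and 12.2 CPM in all libraries, and ATF6, between 85.0 and 96.1 CPM, had log2 ratios of -0.01 and -0.07. CREB3L2, a membrane-bound factor released by the same proteases as ATF6, had 165, 174 and 165 CPM in the targeting libraries, all below the 184, 196 and 178 CPM of the controls (log2 ratio -0.14, SE 0.07, edgeR adjusted p = 0.514).

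XBP1 (chromosome 22, 28794555 to 28800597, minus strand, protein-coding), the factor made when IRE1 splices its message, had the smallest adjusted p of the members. It measured 82.3, 92.2 and 98.5 CPM in siSREBF1, ASO-SREBF1-S1 and ASO-SREBF1-S4, against 75.4, 78.7 and 70.2 CPM in siNegative, ASO-Neg and mock. The lowest targeting library was above the highest control, and the means were 91.0 ± 8.18 and 74.8 ± 4.24 CPM (SD, n = 3 each; log2 ratio 0.28, SE 0.08, edgeR adjusted p = 0.295). Gene counts do not separate spliced from unspliced XBP1 message, so they carry no reading of IRE1 activity.

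DDIT3 (chromosome 12, 57516588 to 57521737, minus strand, protein-coding), which codes the factor CHOP at the end of the PERK branch, was highest with the SREBF1 ASOs. It stood at 20.4, 31.8 and 27.3 CPM in siSREBF1, ASO-SREBF1-S1 and ASO-SREBF1-S4, against 16.2, 21.6 and 21.2 CPM in siNegative, ASO-Neg and mock. The siSREBF1 value lay within the range of the controls, and the log2 ratio of 0.45 (SE 0.17) did not pass (edgeR adjusted p = 0.406). PPP1R15A, known as GADD34 and the phosphatase subunit that lets translation resume, was at 88.0, 125 and 96.4 CPM in targeting and 90.4, 91.7 and 96.2 CPM in control libraries. ASO-SREBF1-S1 alone stood apart there. DDIT3 shares its span with MARS1 and MBD6 on the opposite strand, with 36032 and 9657 counts over the 6 libraries beside 3207 for DDIT3. The counts are strand-specific, but 6.47% to 7.79% of reads fell on the other strand's column over all genes, and carry-over into DDIT3 was not tested.

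Each targeting reagent was next set against its own negative control, as single libraries with no test. A log2 ratio of at least 0.5 in size was counted where at least 1 of the 2 libraries had 10 CPM or more, and the 95% intervals cover counting error only. For siSREBF1 over siNegative, 1 of 36 members was higher, ERO1B at 0.85 (0.72 to 0.98), and 0 were lower, beside 1.77% and 2.1% of all genes. For ASO-SREBF1-S1 over ASO-Neg, 1 was higher, DDIT3 at 0.56 (0.39 to 0.73), and 0 were lower, beside 1.28% and 2.24%. PPP1R15A fell just short there at 0.45 (0.37 to 0.53). For ASO-SREBF1-S4 over ASO-Neg, 1 was higher, ERO1B at 0.86 (0.72 to 1.00), and 0 were lower, beside 3.06% and 2.25%. ERO1B in ASO-SREBF1-S1 stood at 0.11 (-0.02 to 0.23) over ASO-Neg. The test of whether the siRNA effect differs from that of the ASOs (edgeR interaction with 1 residual degree of freedom) called 0 members and 0% of genes, with 1.33% of genes at an unadjusted p under 0.05 and 0 members. Its spread is only that between the SREBF1 ASOs, which are different oligonucleotides, so this count does not show that the chemistries act alike.

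The median log2 ratio of the 36 members was -0.01 for siSREBF1 over siNegative, 0.00 for ASO-SREBF1-S1 over ASO-Neg and 0.11 for ASO-SREBF1-S4 over ASO-Neg, where the median of all genes was -0.02. Above 0 were 16 of 36 members for siSREBF1 (48.6% of all genes), and 18 of 36 for ASO-SREBF1-S1 (52.3%). For ASO-SREBF1-S4 over ASO-Neg, 27 of 36 members were above 0, beside 45.3% of all genes. All 9 chaperones were above 0, from 0.11 to 0.41 with a median of 0.31, among them HSPA5 at 0.37 and HYOU1 at 0.39. For siSREBF1 over siNegative 7 of 9 chaperones were above 0, from -0.07 to 0.35 with a median of 0.03. For ASO-SREBF1-S1 over ASO-Neg 5 of 9 were above 0, from -0.16 to 0.09 with a median of 0.03. The contrasts of both SREBF1 ASOs share the ASO-Neg library.

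**Figure D4:**
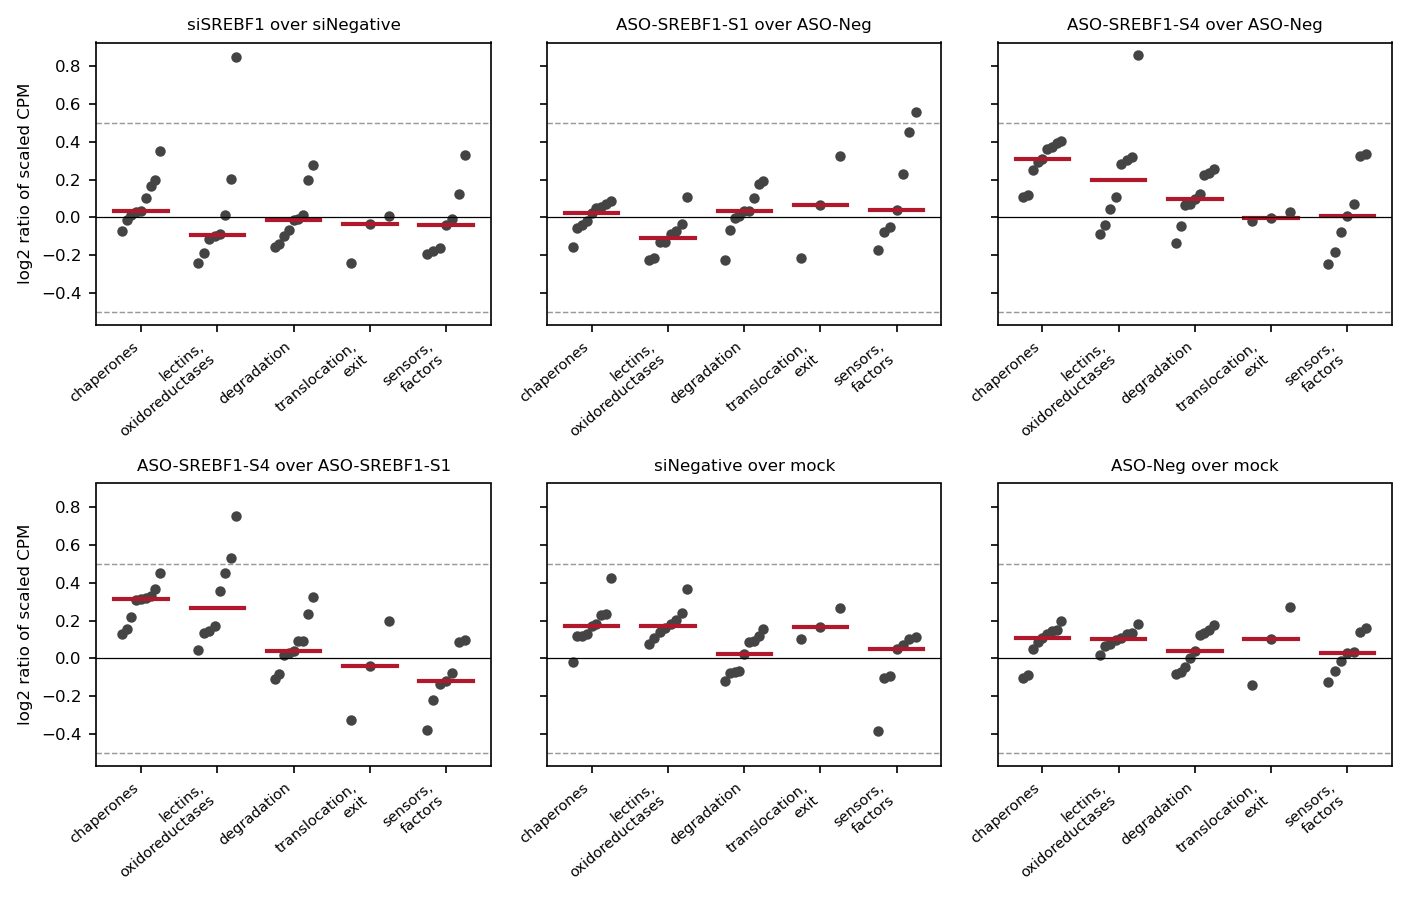
Log2 ratio of scaled CPM for every measured member in 6 single-library contrasts, grouped by role, with red bars for group medians and dashed lines at 0.5 in either direction. The chaperones lie above 0 in both contrasts of ASO-SREBF1-S4. Their median lies near 0 for siSREBF1 over siNegative and ASO-SREBF1-S1 over ASO-Neg.

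Both SREBF1 ASOs were used at 5 nM for 3 days, so they can be set side by side, as different oligonucleotides at 1 matched dose. SREBF1 itself was at 70.4 CPM in ASO-SREBF1-S4 and 77.1 CPM in ASO-SREBF1-S1. For ASO-SREBF1-S4 over ASO-SREBF1-S1, 2 of 36 members were higher past the limit, ERO1B at 0.75 (0.65 to 0.86) and PDIA4 at 0.53 (0.50 to 0.56), and 0 were lower, beside 4.29% and 2.42% of all genes. Above 0 were 27 members, beside 43.8% of all genes. All 9 chaperones were above 0 with a median of 0.32, and so were all 8 lectins and oxidoreductases with a median of 0.27. In the same contrast 4 of the 8 melanoma markers were lower past the limit, with a median of -0.52 over the 8 and the lowest at -1.21, and LUM, the measured fibroblast marker, stood at -0.48. Over ASO-Neg, 3 of 8 melanoma markers were lower past the limit in ASO-SREBF1-S4, while 7 of 8 were above 0 and 1 of them past the limit in ASO-SREBF1-S1, and the part of these differences was not tested. Among the sensors and factors 2 of 7 were above 0, with a median of -0.12, and PPP1R15A stood at -0.38 and DDIT3 at -0.22. The 9 chaperones summed to 5658 CPM in ASO-SREBF1-S4 and 4334 CPM in ASO-SREBF1-S1, beside 4833 CPM in siSREBF1 and 4171 to 4839 CPM in the controls.

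The 11 members whose window held an exact ERSE or ERSE-II were set beside the 22 whose window held neither. Near matches, and elements outside the 250 bases, were not counted, so the 22 are not known to lack such elements. For ASO-SREBF1-S4 over ASO-SREBF1-S1, 10 of the 11 were above 0, with a median of 0.32 and HERPUD1 lowest at -0.11, and 14 of the 22, with a median of 0.04. For ASO-SREBF1-S4 over ASO-Neg, the medians were 0.32 for the 11 and 0.07 for the 22. They were 0.01 and -0.01 for siSREBF1 over siNegative and 0.05 and -0.01 for ASO-SREBF1-S1 over ASO-Neg. With no SREBF1 reagent they were 0.18 and 0.09 for siNegative over mock and 0.13 and 0.04 for ASO-Neg over mock. The elements go with role here, since many of their carriers are chaperones or isomerases, and the difference between the groups of members was not tested. ASO-SREBF1-S4 also had the largest mitochondrial share of counts, 6.38%, against 5.06% in ASO-SREBF1-S1 and 5.73% to 5.80% in the controls, and the part of this in the member levels was not tested.

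The negative reagents over mock compare an oligonucleotide with no SREBF1 target with none at all. No member was past the limit for siNegative over mock (0.673% of genes higher, 0.143% lower) or for ASO-Neg over mock (0.276% higher, 0.911% lower). Above 0 were 28 of 36 members for siNegative (49.5% of all genes) and 27 of 36 for ASO-Neg (53.2%), and both contrasts share the mock library. All 8 lectins and oxidoreductases were above 0 in each, with medians of 0.17 for siNegative and 0.10 for ASO-Neg. Of the 9 chaperones, 8 were above 0 for siNegative with a median of 0.17, and 7 for ASO-Neg with a median of 0.11. Of the 8 melanoma markers, 7 were below 0 in each, with medians of -0.38 for siNegative and -0.29 for ASO-Neg, and their part was not tested. HYOU1 stood at 0.42 (0.37 to 0.47) for siNegative over mock and at 0.20 (0.14 to 0.25) for ASO-Neg over mock. Mock held the lowest value of 11 members and the highest of 0, where it held the highest of 16.7% and the lowest of 15.9% of all genes.

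Neighbouring genes of the pathway were read from 8 further lists. The list of PERK and ATF4 outputs had 14 of 15 genes tested, with 0 passing in either direction and a median log2 ratio of 0.17. At an unadjusted p under 0.05 in edgeR, 4 were higher and 0 lower, beside 4.93% and 5.3% of all genes. The sides did not overlap, with targeting higher, for 4 of the 14, and with targeting lower for 0, beside 8.87% and 8.52% of all genes. CEBPG, a partner of ATF4, was at 42.2, 47.4 and 39.6 CPM in siSREBF1, ASO-SREBF1-S1 and ASO-SREBF1-S4, against 29.7, 36.0 and 31.2 CPM in siNegative, ASO-Neg and mock, without overlap (log2 ratio 0.42, edgeR adjusted p = 0.226). SESN2, an inhibitor of mTORC1 signalling, was at 18.1, 24.1 and 18.9 CPM in targeting and 13.0, 15.7 and 11.7 CPM in control libraries, also without overlap (log2 ratio 0.60, edgeR adjusted p = 0.237). CHAC1, which degrades glutathione, was low, at 2.61, 7.67 and 3.45 CPM in targeting and 2.03, 2.47 and 1.65 CPM in control libraries (log2 ratio 1.23, edgeR adjusted p = 0.324). The fourth, TNFRSF10B, a death receptor, had a log2 ratio of 0.15.

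Within that list the genes stood mostly lower in ASO-SREBF1-S4 than in ASO-SREBF1-S1. For ASO-SREBF1-S4 over ASO-SREBF1-S1, 10 of 12 measured outputs were below 0, with a median of -0.31, beside 5552 of 9872 genes below 0. Past the limit 3 were lower, beside 2.42% of all genes, namely ATF3, ATF5 and NUPR1, named after their values were seen. Over ASO-Neg, 4 of 12 outputs were higher past the limit in ASO-SREBF1-S1 (ATF3, ATF5, SESN2 and NUPR1) and 0 lower, beside 1.28% and 2.24% of all genes. The median over the list was 0.21. In ASO-SREBF1-S4, 0 of 11 were higher and 1 lower, beside 3.06% and 2.25% of all genes, with a median of 0.03. For siSREBF1 over siNegative, 8 of 11 outputs were above 0, with a median of 0.11, beside 48.6% of all genes. There CEBPG was higher past the limit at 0.50 and BBC3 lower at -0.75, beside 1.77% and 2.1% of all genes. ATF5 stood at 15.1 CPM in ASO-SREBF1-S4 and 27.3 CPM in ASO-SREBF1-S1, and NUPR1 at 9.11 CPM in ASO-SREBF1-S4 and 16.3 CPM in ASO-SREBF1-S1. DDIT3 and PPP1R15A, themselves outputs of this branch, were likewise lower in ASO-SREBF1-S4 than in ASO-SREBF1-S1. These are single libraries with no test.

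The other 7 lists had 0 genes past the test in either direction. Their counts at an unadjusted p under 0.05 in edgeR stand beside 4.93% of all genes higher and 5.3% lower. The COPII coat (18 tested) had 1 gene on each side at an unadjusted p under 0.05, with SEC23B at 77.3, 72.7 and 71.0 CPM in targeting and 62.6, 61.8 and 61.3 CPM in control libraries (edgeR adjusted p = 0.249). Other ER chaperones and folding enzymes (30 tested) had 3 higher and 1 lower at that level, with 14 of 30 log2 ratios above 0 and a median of -0.03. Other degradation genes (28 tested) and glycan trimming (14 tested) had 1 on each side, the translocon (17 tested) and the sensor partners and proteases (20 tested) 1 higher each, and the oligosaccharyltransferase (12 tested) 0. The sides did not overlap, with targeting higher and lower in turn, for 5 and 2 of 17 translocon genes. The counts were 5 and 4 of 28 other degradation genes and 5 and 4 of 30 other ER chaperones and folding enzymes. They were 3 and 2 for the COPII coat, 1 and 1 for glycan trimming, 1 and 1 for the sensor partners and 1 and 0 for the oligosaccharyltransferase. Of all genes, 8.87% and 8.52% did not overlap. For ASO-SREBF1-S4 over ASO-SREBF1-S1, 10 of 11 oligosaccharyltransferase genes were above 0, with a median of 0.17. So were 11 of 13 glycan trimming genes (median 0.08) and 21 of 29 other ER chaperones and folding enzymes (median 0.10). The translocon had 9 of 16 above 0, other degradation genes 14 of 28, the COPII coat 6 of 18 and sensor partners 6 of 20. Of all genes, 43.8% were above 0.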

How the data were processed

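RNA was sequenced as strand-specific poly(A) libraries with paired reads of 75 bases, per the labels' protocols. The deposited values are whole-number counts per Ensembl gene, 1 table per lane, made by the authors with STAR 2.6.1a on GRCh38 per the submitters' processing notes; the annotation release is not given in the sources used here. The column for the strand that held most reads was used, with 80.7 to 81.8% of counted reads in genes. Rows that name no gene (18.2 to 19.3%) were left out. The 4 lanes of a library differed by a chi-square of 1.018 to 1.047 per degree of freedom, against 2.03 to 8.69 between libraries, and were summed, giving 12916478 to 47900277 counts.

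Counts were scaled by TMM. The 3 targeting and 3 control libraries were compared with edgeR 4.0.16 (quasi-likelihood F test, 2-sided, filterByExpr, Benjamini-Hochberg over 15123 genes, threshold 0.05); p-values measure the spread between these libraries, which differ in reagent. An interaction fit used 5 classes. Single libraries were compared by log2 ratios with a prior count of 2 and exact 95% counting intervals, which do not cover biological variation. DESeq2 1.42.0, limma 3.58.1, other scalings and filters were alternatives. The main edgeR fit of 3 against 3 libraries was tested on simulated counts. Names and coordinates came from GENCODE 44 (GRCh38) and promoter windows from RefSeq. Values in every library are given for members past the threshold, past the fold limit or with sides that do not overlap and a log2 ratio of at least 0.3, and for further members chosen after their values were seen; other lists name up to 4 genes by smallest p. The members and lists were chosen with earlier results of these data known.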

Additional observations from a re-analysis of the deposited data

How the results depend on the processing

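The count of members past the threshold in the targeting against control comparison, 0 as reported, was 1 with DESeq2 and 2 with no filter on low counts, where ERO1B (adjusted p = 3.82e-09) and DDIT3 (adjusted p = 0.0106) passed among 509 called genes. Leaving out 1 library at a time gave 0 to 1 members, the 1 being ERO1B without ASO-SREBF1-S1. The genes called in all numbered 9 as reported, 170 with DESeq2, 5 with limma-voom, 0 with chemistry as a term, 10 with the unstranded column, and 7, 103, 12, 3, 1 and 1 without siSREBF1, ASO-SREBF1-S1, ASO-SREBF1-S4, siNegative, ASO-Neg and mock. With a fold limit of 1, the members higher past it numbered 0 in place of 1 for siSREBF1 over siNegative, 0 in place of 1 for ASO-SREBF1-S1 over ASO-Neg, 0 in place of 1 for ASO-SREBF1-S4 over ASO-Neg, and 0 in place of 2 for ASO-SREBF1-S4 over ASO-SREBF1-S1. With no minimum CPM, 1 member, DERL3, was higher for siNegative over mock and 1, again DERL3, for ASO-Neg over mock, from at most 4 reads a library. With the unstranded column, 1 member was lower for siNegative over mock, DDIT3 at -0.57. DDIT3 overlaps genes on the opposite strand, and the part of that overlap in this value was not tested. Over these settings the log2 ratio of targeting over control ranged from 0.50 to 0.93 for ERO1B, 0.29 to 0.60 for DDIT3 and 0.21 to 0.35 for XBP1. It ranged from 0.17 to 0.31 for HERPUD1 and 0.15 to 0.33 for DNAJB11, and the member median from 0.02 to 0.11. None of these changed direction. No paired analysis was possible because the numbers in the labels count lanes of 1 library, which were summed. Each group is 1 library, so reagent and culture cannot be told apart, and DERL3 is too low to compare at this depth.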
